A study of Mus musculus with 4 samples.

Results

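Efferocytosis is the clearance of dying cells by phagocytes, and scavenger receptors take up modified lipoproteins and other debris. The 10 mouse genes described here were chosen by name from these pathways: the receptor tyrosine kinases Axl, Mertk and Tyro3, their ligands Gas6 and Pros1, the bridging protein Mfge8, the scavenger receptors Cd36 and Msr1, and the inhibitory pair Sirpa and Cd47. No rule on measured values was used, but earlier results of these data were known when the 10 were chosen. They are 10 of 55487 genes in the count table, and each had 1 row.

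Langerhans cells, which are epidermal antigen-presenting cells, had been isolated from mouse ears, and their RNA was sequenced. All mice were wild type; ears received Vaseline as the negative control or imiquimod. Imiquimod is an agonist of Toll-like receptor 7 used on mouse skin to model psoriasis. There were 2 libraries per treatment. Dose, duration, age, sex, strain and how the cells were isolated are not given in the labels. Nor is it given whether the libraries came from separate animals, so p-values rest only on spread between these libraries, which may be technical. The fits pool that spread over genes, so the standard error of a gene is not the scatter of its own libraries alone.

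Dying cells expose phosphatidylserine. Gas6 and protein S (Pros1) bind it and activate the TAM receptors (Tyro3, Axl and Mertk), MFG-E8 links it to integrins, and CD36 and MSR1 bind oxidised lipids and other ligands directly. CD47 on the target cell signals through SIRP-alpha on the phagocyte to restrain engulfment. In the epidermis, AXL is known from Langerhans cells, where TAM signalling also limits innate responses, while MERTK and MSR1 are better known from macrophages.

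The label was checked against markers before the genes were compared. Library totals ran from 14902782 to 76028955 counts, and those of both imiquimod libraries were below those of both Vaseline libraries. Cd207 (langerin) was present in every library, at 2255 and 6884 CPM (counts relative to library size, scaled with the trimmed mean of M-values, TMM) after Vaseline and at 1201 and 574.7 CPM after imiquimod. The summed level of 12 Langerhans cell markers was 20240 and 49291 CPM after Vaseline and 8583 and 5974 CPM after imiquimod, with 12 of 12 log2 fold changes negative and none past the test. Keratinocyte markers summed to 16770 and 20862 CPM after Vaseline and to 16614 and 4432 CPM after imiquimod, so RNA of these neighbours was present in every library. Of their fold changes 9 of 10 were negative and none passed the test. Markers of activated keratinocytes, 10 of 10 with positive fold changes and none past the test, summed to 358 and 768 CPM after Vaseline and to 1452 and 443 CPM after imiquimod. The 10 neutrophil markers summed to 16.3 and 50.3 CPM after Vaseline and 73.8 and 269 CPM after imiquimod, and 2 of them, Mmp8 and S100a8, rose in the edgeR test on all genes. In a second edgeR fit, on genes at a mean of 5 times the background given next or more, S100a8 had an adjusted p of 0.447 and Mmp8 did not enter. Only 3 of the 10 neutrophil markers entered that fit. S100a9 alone was at 0.774 and 31.0 CPM after Vaseline and at 39.2 and 151.8 CPM after imiquimod, a large part of 3 of the 4 sums. The 12 macrophage markers summed to between 167 and 296 CPM and overlapped between groups, and dermal dendritic cell markers summed to between 82.4 and 372 CPM. T cell markers, 8 of 8 negative, summed to 280.5 and 270.1 CPM after Vaseline and to 161.8 and 138.6 CPM after imiquimod, and mast cell markers to 20.8 and 25.8 CPM against 35.8 and 76.1 CPM, both without overlap. Of the mast cell markers Hdc rose, and of the fibroblast markers Col3a1 fell. In the second fit Hdc did not enter and Col3a1 had an adjusted p of 0.573. Kit was the only mast cell marker in that fit. The others averaged under 5 times the background, which was itself higher in both imiquimod libraries. Markers of fibroblasts, endothelial cells and melanocytes summed to no more than 154 CPM each and overlapped. The markers at 0 were Fcer1a (mast cell) in all libraries, Camp (neutrophil) and Folr2 (macrophage) in imiquimod library 1, and 1 activated keratinocyte marker in each of 2 libraries. In such bulk RNA, fewer Langerhans cells and less of a transcript per Langerhans cell cannot be told apart.

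A background of reads at low level also differed between libraries. Its measure was the counts of 1768 receptor genes of smell and pheromone sensing, each divided by exonic length, of which the median was taken in each library. In Vaseline libraries 1 and 2 it was 0.377 and 0.0913 CPM per kilobase, and in imiquimod libraries 1 and 2 it was 0.526 and 1.26 CPM per kilobase, before TMM scaling. Both imiquimod libraries were above both Vaseline libraries. The description codes of the libraries share a letter prefix within Vaseline and differ between the imiquimod libraries; if that prefix marks a batch, batch and treatment cannot be told apart.

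None of the 10 genes passed the test across all genes (edgeR quasi-likelihood, Benjamini-Hochberg adjusted p under 0.05), in a fit in which 0.200% of 39439 tested genes did. At an unadjusted p under 0.05, Cd36 and Sirpa were lower after imiquimod and 0 genes were higher, and 5.10% of all tested genes were lower by that rule. Log2 fold changes were negative for 7 genes and positive for 3, with a median of -0.72, against 39.4% negative and a median of 0.41 over all tested genes. Among tested genes at 5 times the receptor-gene background or more, the median was -0.68. That set leaves out Mertk (0.26) and Msr1 (0.06), which the median of the 10 includes, so these medians are not matched. Both imiquimod libraries lay below both Vaseline libraries for 6 genes (Gas6, Pros1, Mfge8, Cd36, Sirpa and Cd47) and above for none, whereas 20.9% of all tested genes were lower and 30.5% higher without overlap. These shares include genes near background. On this scale they were not counted for the 14605 tested genes at 5 times background or more alone. With DESeq2, Mfge8, Cd36 and Sirpa were lower at an adjusted p under 0.05, and 6.95% of the 9619 genes with an adjusted p in that fit were. DESeq2 gave no adjusted p to Mertk and Msr1.

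**Figure D1:**
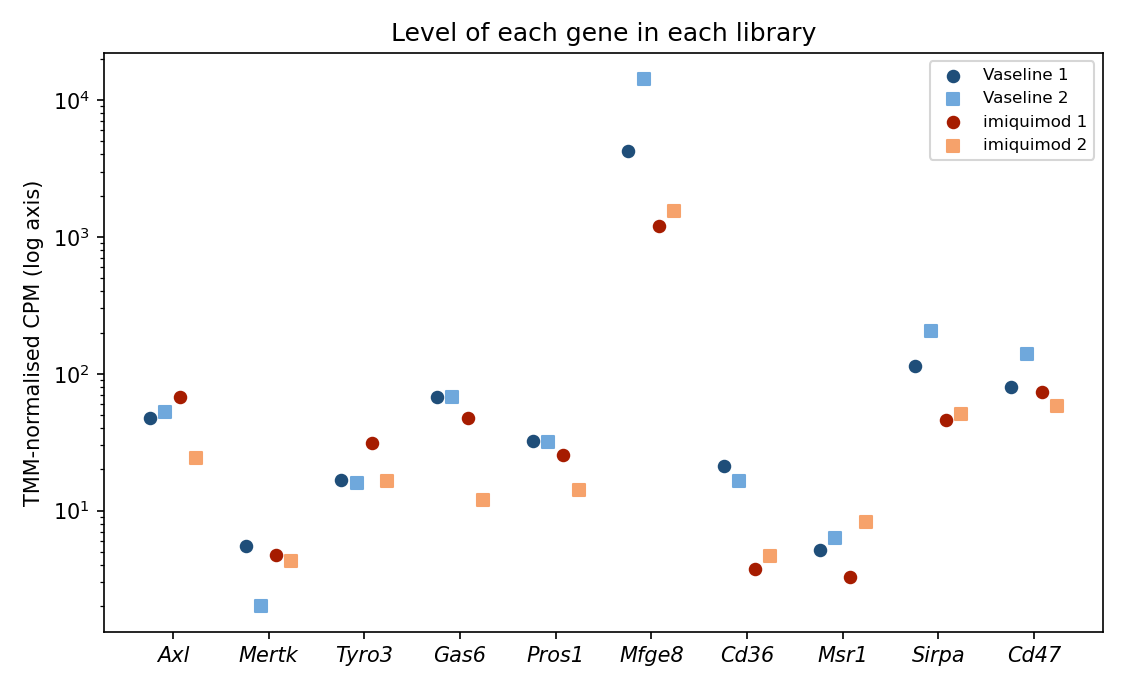
TMM-normalised CPM (log axis) of each gene in the 4 libraries, 1 point per library, blue for Vaseline and red or orange for imiquimod. Mfge8 stands above all others in every library, and its imiquimod points, like those of Gas6, Pros1, Cd36, Sirpa and Cd47, lie below both Vaseline points.

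Promoter sequences are shown for Mfge8 and Cd36, which had the lowest fold changes of the 10, and for Tyro3, which had the highest. Each covers 250 bases before to 50 bases after a RefSeq start site, on the gene's own strand in build GRCm38.p6, 5′ to 3′. Capitals mark the GC box GGGCGG on either strand, read as CCGCCC where it lies on the other strand. Mfge8 spans chr7:79149011-79149310 on the minus strand, Cd36 spans chr5:17835847-17836146 on the minus strand and Tyro3 spans chr2:119799264-119799563 on the plus strand. The windows of Cd36 and Tyro3 lie inside the annotated spans of their genes, downstream of the outermost 5′ end. Which start site these cells used was not tested.
Mfge8: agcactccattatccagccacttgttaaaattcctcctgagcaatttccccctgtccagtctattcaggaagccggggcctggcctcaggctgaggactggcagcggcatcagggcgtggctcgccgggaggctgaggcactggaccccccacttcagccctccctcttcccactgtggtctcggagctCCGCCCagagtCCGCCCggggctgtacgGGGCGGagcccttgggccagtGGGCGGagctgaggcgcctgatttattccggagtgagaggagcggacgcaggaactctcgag
Cd36: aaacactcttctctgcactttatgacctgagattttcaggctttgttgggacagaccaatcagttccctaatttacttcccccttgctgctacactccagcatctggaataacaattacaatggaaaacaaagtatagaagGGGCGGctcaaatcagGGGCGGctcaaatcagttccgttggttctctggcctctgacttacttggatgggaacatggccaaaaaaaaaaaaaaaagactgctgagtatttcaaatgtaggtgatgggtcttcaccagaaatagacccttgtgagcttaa
Tyro3: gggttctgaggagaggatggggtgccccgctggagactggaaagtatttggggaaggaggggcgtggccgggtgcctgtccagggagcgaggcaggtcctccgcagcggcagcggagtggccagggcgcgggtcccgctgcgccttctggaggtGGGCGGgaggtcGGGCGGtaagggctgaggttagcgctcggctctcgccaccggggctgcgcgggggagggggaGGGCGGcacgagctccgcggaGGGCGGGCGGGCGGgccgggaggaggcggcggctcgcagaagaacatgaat
The Mfge8 window held 4 GC boxes and 17 CpG dinucleotides, that of Cd36 held 2 and 3, and that of Tyro3 held 6 (some overlapping) and 31. GC content was 64.3% for Mfge8, 43.0% for Cd36 and 73.3% for Tyro3. The promoter table held 8 of the 10 genes, not Msr1 and Sirpa, and all 8 had a GC box, as did 35.9% of all 27025 promoters in it. On either strand, none of the 8 held the PU.1 core GAGGAAGT (3.28% of all promoters), the AP-1 site TGANTCA (7.93%), an interferon-stimulated response element (3.49%) or an NF-kappaB site (0.385%). A match describes these letters in this window, and the motifs were chosen after expression values had been seen.

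Among the TAM receptors, no fold change exceeded its standard error (SE) in the fit on all tested genes. Axl (chr7:25757273-25788705, minus strand), a receptor that depends on Gas6, was measured at 47.2 and 52.5 CPM after Vaseline and at 67.5 and 24.3 CPM after imiquimod. The imiquimod libraries lay on either side of the Vaseline libraries, so the groups overlapped. Means were 49.8 ± 3.71 CPM (SD, n = 2) and 45.9 ± 30.5 CPM (SD, n = 2), and the log2 fold change was -0.13 (SE 0.64, adjusted p = 0.914). This sign turned to 0.52 (SE 0.36, adjusted p = 0.611) when only genes above background were fitted, that is, those whose mean ratio to the receptor-gene background over the 4 libraries was at least 5.

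Tyro3 (chr2:119797733-119818104, plus strand), a TAM receptor with Pros1 and Gas6 as ligands, was measured at 16.9 and 15.9 CPM after Vaseline and at 31.1 and 16.6 CPM after imiquimod. Imiquimod library 1 was above the rest, and imiquimod library 2 fell between the Vaseline libraries. Per exonic kilobase, Tyro3 stood at 6.87 and 16.8 times background after Vaseline and at 10.0 and 3.53 times after imiquimod. Tyro3 had a fold change of 0.52 on the log2 scale (SE 0.60, adjusted p = 0.614), and of -0.06 without imiquimod library 1. In the fit on genes above background its normalised levels were 16.5 and 10.9 CPM after Vaseline and 34.7 and 28.7 CPM after imiquimod. On that scale the groups did not overlap, and the log2 fold change stood at 1.21 (adjusted p = 0.447, SE 0.35). Of the 10 genes, Tyro3 alone was higher without overlap there, and 23.5% of the genes above background were. On library totals alone it was also higher without overlap. The median log2 fold change of all genes on that scale was 1.30, and the share of genes higher without overlap was not counted.

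Mertk (chr2:128698956-128802894, plus strand), the TAM receptor of macrophage efferocytosis, was at 5.54 and 2.03 CPM after Vaseline and at 4.73 and 4.32 CPM after imiquimod. Per exonic kilobase it stood at 3.23 and 3.06 times background after Vaseline and at 2.18 and 1.31 times after imiquimod. It was therefore near background in every library and was left out of the fit above background. The log2 fold change of 0.26 (SE 0.66, adjusted p = 0.828) became -0.33 without Vaseline library 2.

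Because ratios within a library do not depend on scaling, the makeup of the TAM receptors was compared per exonic kilobase. Axl made up 70.1% and 77.4% of their summed level after Vaseline and 68.7% and 56.9% after imiquimod, a difference of -10.99 percentage points between the means. Tyro3 made up 20.3% and 19.1% after Vaseline and 25.7% and 31.4% after imiquimod. In all 4 libraries Axl was the main TAM receptor transcript, followed by Tyro3, and both imiquimod libraries had a smaller Axl share and a larger Tyro3 share than both Vaseline libraries. With the background subtracted in each library, the Axl share was 73.7% and 79.0% after Vaseline and 71.7% and 65.4% after imiquimod, again without overlap. An exact permutation test on 2 against 2 libraries cannot go below p = 0.333.

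**Figure D2:**
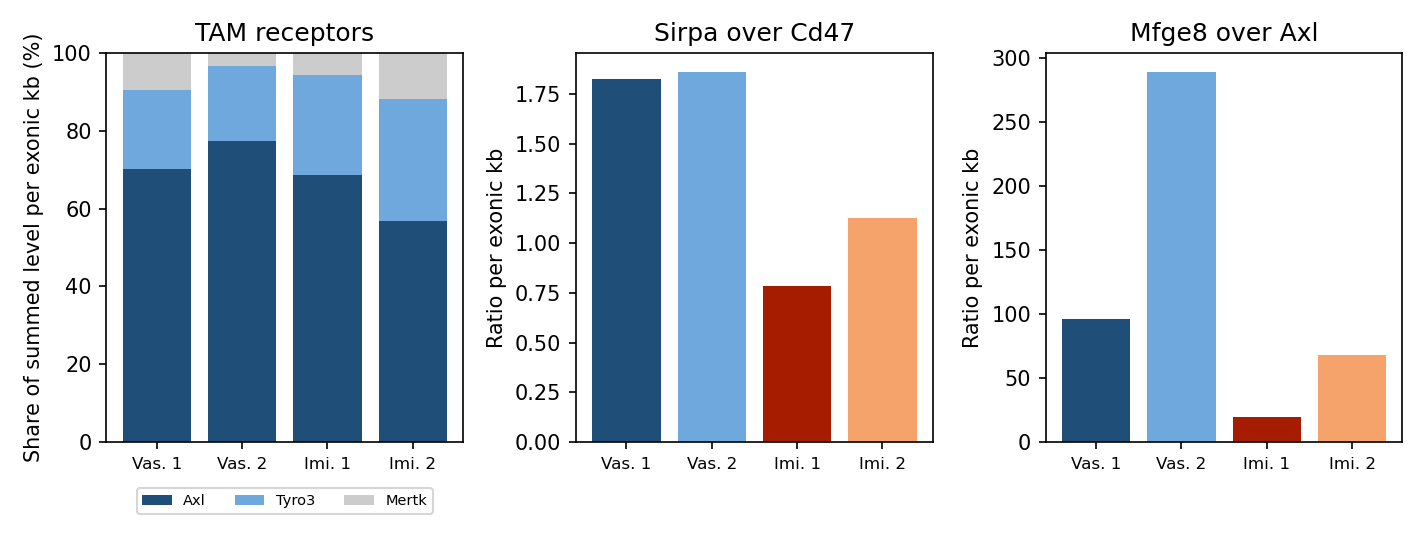
Ratios within each library, per exonic kilobase, for Vaseline (Vas.) and imiquimod (Imi.) libraries 1 and 2: shares of Axl, Tyro3 and Mertk in their sum (left, %), Sirpa over Cd47 (middle) and Mfge8 over Axl (right). Axl is the largest share in every library, and Sirpa over Cd47 is 1.83 and 1.86 after Vaseline against 0.786 and 1.13 after imiquimod.

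Both TAM ligands had negative fold changes that did not pass the test. Gas6 (chr8:13465374-13494490, minus strand), which binds all 3 TAM receptors, was at 67.9 and 67.1 CPM after Vaseline and at 47.5 and 12.02 CPM after imiquimod. The Vaseline libraries were close together, the imiquimod libraries lay below them, and imiquimod library 2 was the lowest. For Gas6 the log2 fold change came to -1.20 (SE 0.65, adjusted p = 0.384), and to -0.50 without imiquimod library 2. Above background, its levels of 66.3, 45.9, 53.1 and 20.8 CPM, in the order Vaseline 1, Vaseline 2, imiquimod 1 and imiquimod 2, overlapped between groups. Gas6 shares 1.33% of its exonic bases with Tmem255b.

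Pros1 (chr16:62854307-62929346, plus strand), which encodes protein S, also a cofactor of anticoagulation, was at 32.3 and 31.8 CPM after Vaseline and at 25.6 and 14.1 CPM after imiquimod. The order of the libraries was that of Gas6. Pros1 had a fold change of -0.71 on the log2 scale (SE 0.61, adjusted p = 0.522), and of -0.01 (SE 0.32, adjusted p = 0.995) among genes above background. Per exonic kilobase, the ratio of Gas6 to Pros1 was 3.37 and 3.39 after Vaseline and 2.98 and 1.37 after imiquimod. Gas6 was thus the more abundant ligand transcript in all 4 libraries, by a smaller ratio in both imiquimod libraries. The ratio of Gas6 to Axl was 2.84 and 2.53 after Vaseline and 1.39 and 0.976 after imiquimod, also without overlap. Both ratios were added after values were seen, and the part of the mix of cells in them was not tested.

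Mfge8 (chr7:79133768-79149060, minus strand) encodes MFG-E8, a secreted protein that bridges phosphatidylserine to alpha-v integrins. It was the most abundant of the 10 genes by a wide margin, with a mean of 1125 CPM per exonic kilobase over the 4 libraries against 21.1 for Sirpa, the next. Its levels were 4221 and 14143 CPM after Vaseline and 1202 and 1548 CPM after imiquimod. These were 0.403% and 0.845% of all counts after Vaseline and 0.126% and 0.256% after imiquimod, and Mfge8 ranked 17, 9, 61 and 23 among all genes in the same order of libraries. Both imiquimod libraries lay below both Vaseline libraries, which themselves differed widely.

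Mean Mfge8 levels were 9182 ± 7016 CPM (SD, n = 2) after Vaseline and 1375 ± 244 CPM (SD, n = 2) after imiquimod, a 6.68-fold higher mean in Vaseline. The log2 fold change was -2.74 (SE 2.32, edgeR adjusted p = 0.518). DESeq2 gave -3.10 (SE 0.71) with an adjusted p of 0.00225, and tools therefore differed on the call. In an older form of the edgeR test the SE was 1.29, so the SE of Mfge8 depended on the fit. Restricted to genes above background, edgeR gave -1.78 (SE 0.90, adjusted p = 0.520) and DESeq2 gave -1.82 with an adjusted p of 0.0404. Mfge8 was the only 1 of the 8 genes above background that DESeq2 called lower there, as it did 1.09% of the genes tested.

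Mfge8 was next read against other transcripts of the same library. Its ratio to Cd207, in counts, was 1.87 and 2.06 after Vaseline and 1.00 and 2.69 after imiquimod, with both Vaseline values between the imiquimod values. Its ratio to Axl per exonic kilobase was 95.8 and 289 after Vaseline and 19.1 and 68.2 after imiquimod, lower in both imiquimod libraries. Mfge8 thus had a lower level after imiquimod relative to Axl and an overlapping one relative to Cd207. The part of the lower Langerhans cell markers in the level of Mfge8 was not tested.

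The genes whose levels over the 4 libraries most resembled those of Mfge8 were Gngt2, Sdf2l1 and Glipr1, with root-mean-square differences in centred log2 level of 0.0702, 0.0757 and 0.105 over 4 libraries. Of 10701 protein-coding genes compared, 312 were within 0.5 of Mfge8, so the likeness is shared with many. Gngt2 was at 39.3 and 115.0 CPM after Vaseline and at 10.5 and 13.8 CPM after imiquimod. The log2 fold changes of Gngt2, Sdf2l1 and Glipr1 were -2.65, -2.57 and -2.85, values that their choice by likeness to Mfge8 had fixed and that are given as a description.

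**Figure D3:**
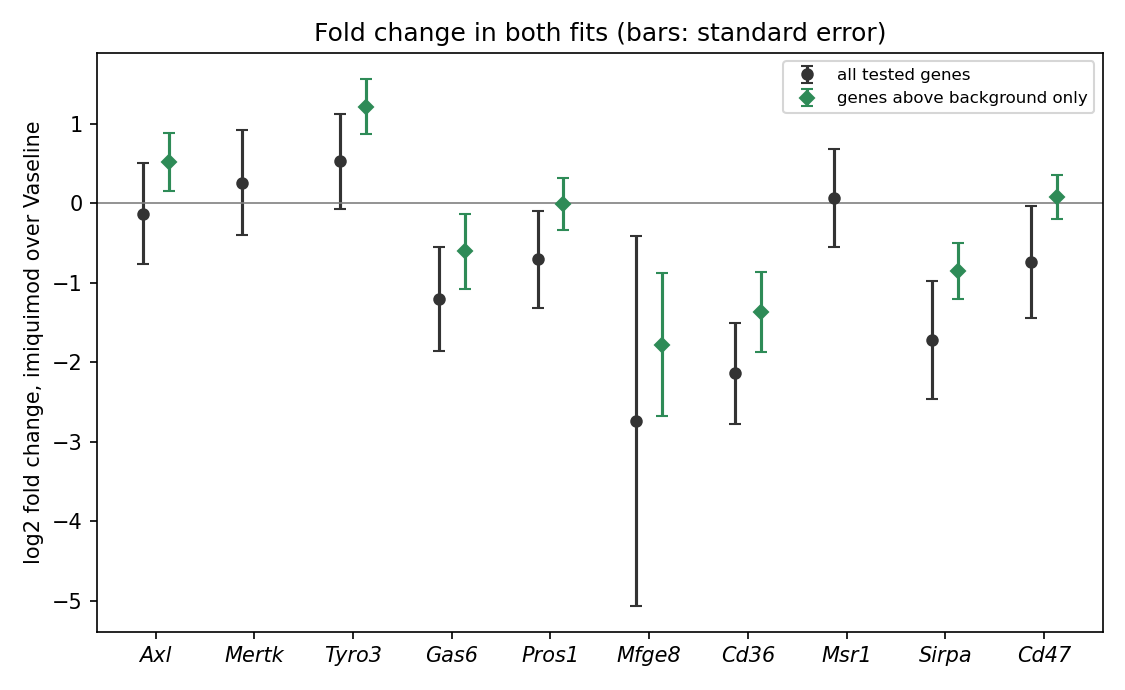
Log2 fold change of imiquimod over Vaseline for each gene, with bars of 1 SE, in the fit on all tested genes (circles) and in that on genes above background (diamonds). The diamonds lie above the circles for all 8 genes in both fits, and Mertk and Msr1 have no diamond.

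The scavenger receptors differed in how far they stood above background. Cd36 (chr5:17781690-17888801, minus strand) takes up oxidised lipoproteins and long-chain fatty acids, and acts with integrins in the uptake of dying cells. It was at 21.4 and 16.4 CPM after Vaseline and at 3.77 and 4.67 CPM after imiquimod. The groups were far apart and each was tight, with means of 18.9 ± 3.51 CPM (SD, n = 2) and 4.22 ± 0.637 CPM (SD, n = 2), a 4.48-fold higher mean in Vaseline. The log2 fold change was -2.14 (SE 0.63, edgeR adjusted p = 0.121), the smallest adjusted p among the 10 genes, and DESeq2 gave -2.40 with an adjusted p of 0.00761.

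Per exonic kilobase, Cd36 stood at 15.04 and 29.9 times background after Vaseline but at 2.10 and 1.72 times after imiquimod. In the imiquimod libraries it was thus close to the level of receptor genes. Cd36 levels on the scale of genes above background were 20.9 and 11.2 CPM after Vaseline and 4.21 and 8.08 CPM after imiquimod. Since only its Vaseline libraries lifted its mean ratio to background above 5, a difference was built into its selection for that fit, and these values are a description. The log2 fold change there was -1.37 (SE 0.50, edgeR adjusted p = 0.478), and the DESeq2 adjusted p was 0.219. No single library carried the sign or size of the Cd36 fold change, which lay between -2.36 and -2.07 with each library left out in turn.

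Msr1 (chr8:39581685-39642673, minus strand), the class A scavenger receptor of macrophages, was at 5.19 and 6.30 CPM after Vaseline and at 3.26 and 8.23 CPM after imiquimod. The imiquimod libraries lay on either side of the Vaseline libraries. At 2.07 and 6.49 times background after Vaseline and 1.03 and 1.71 times after imiquimod, it was near background in 3 of the 4 libraries. Its log2 fold change of 0.06 (SE 0.62, adjusted p = 0.959) was negative in 8 of 14 alternative fits. A difference in Msr1 was not detectable at this depth and background.

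**Figure D4:**
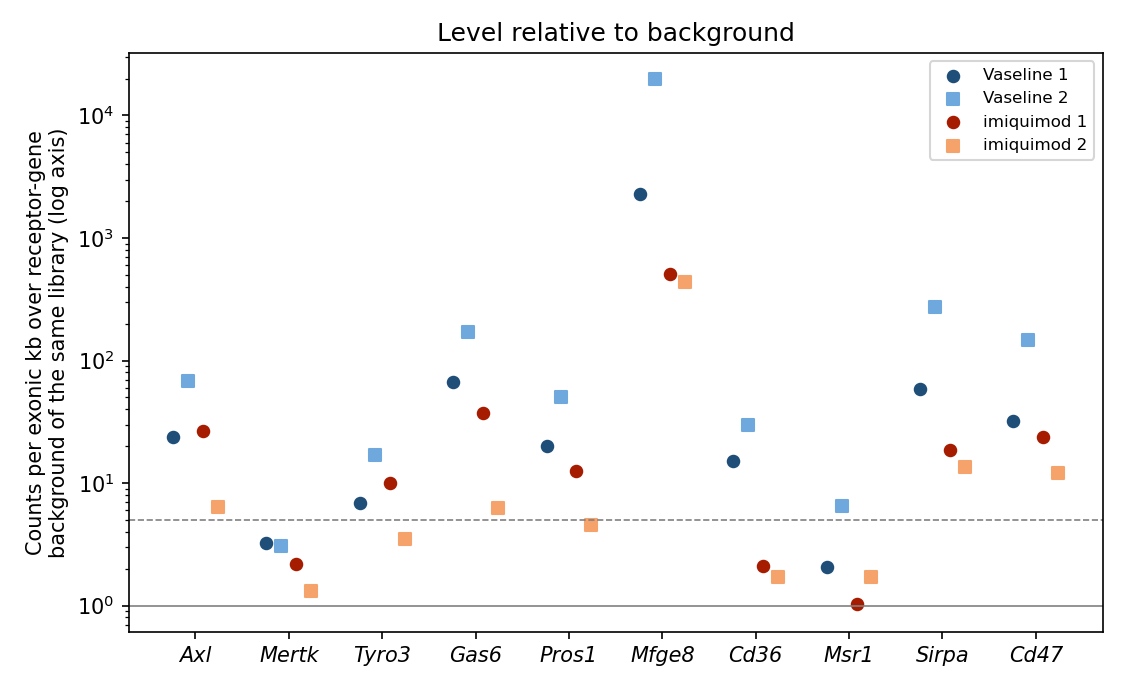
Counts per exonic kilobase of each gene divided by the receptor-gene background of the same library (log axis), 1 point per library. The solid line marks the background and the dashed line 5 times it; Mertk lies under the dashed line in all 4 libraries, and Cd36 lies above it in both Vaseline libraries and under it in both imiquimod libraries.

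Sirpa (chr2:129592835-129632228, plus strand) encodes SIRP-alpha, the inhibitory receptor of myeloid cells that recruits the phosphatases SHP-1 and SHP-2. It was at 113.8 and 204.1 CPM after Vaseline and at 45.6 and 50.8 CPM after imiquimod. The imiquimod libraries were close together and below both Vaseline libraries. Means were 158.9 ± 63.8 CPM (SD, n = 2) and 48.2 ± 3.68 CPM (SD, n = 2), a 3.30-fold higher mean in Vaseline, and the log2 fold change stood at -1.72 (edgeR adjusted p = 0.316, SE 0.74). DESeq2 gave -2.03 with an adjusted p of 0.0266. Above background, Sirpa was at 111.2 and 139.7 CPM after Vaseline and at 50.9 and 87.8 CPM after imiquimod, without overlap, and the log2 fold change was -0.85 (SE 0.35, edgeR adjusted p = 0.485, DESeq2 adjusted p = 0.369).

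Cd47 (chr16:49800533-49915010, plus strand), the broadly expressed ligand of SIRP-alpha, was at 79.6 and 140.0 CPM after Vaseline and at 74.1 and 57.7 CPM after imiquimod. Imiquimod library 1 was just below Vaseline library 1. Its fold change of -0.74 on the log2 scale (SE 0.70, adjusted p = 0.555) turned to 0.07 (SE 0.28, adjusted p = 0.942) above background, where the groups overlapped. Per exonic kilobase, Sirpa was 1.83 and 1.86 times Cd47 after Vaseline and 0.786 and 1.13 times Cd47 after imiquimod. The receptor transcript was thus less abundant relative to that of its ligand in both imiquimod libraries, a difference that does not depend on the scaling between libraries. This ratio was added after values were seen, and the share of gene pairs that separate in this way was not counted. The part of the mix of cells in the ratio was not tested.

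On the scale of genes above background, Mfge8, Cd36 and Sirpa were lower after imiquimod without overlap, where 20.3% of genes were. The same 3 were lower on library totals alone, a scale on which the share of all genes was not counted. Cd36 entered the fit above background only through its Vaseline libraries. Its place in the count on that scale had thus been decided in part by the filter and supports nothing. The order of the 10 genes per exonic kilobase over the 4 libraries was Mfge8, Sirpa (21.1 CPM per kilobase), Gas6 (19.1), Cd47 (14.0), Axl (9.51), Pros1 (6.35), Tyro3 (3.24), Cd36 (3.22), Mertk (0.958) and Msr1 (0.905). From Sirpa downwards, neighbours in this order overlapped in their values across libraries, and the order differed between groups. Cd36, at 5.95 and 4.57 CPM per kilobase after Vaseline and 1.05 and 1.30 after imiquimod, was above Tyro3 in both Vaseline libraries and below it in both imiquimod libraries. In imiquimod library 1, Gas6 (18.7 CPM per kilobase), Axl (13.4) and Cd47 (11.8) were all above Sirpa (9.28). Against the mean log2 level of the 12 Langerhans cell markers, 6 genes (Axl, Mertk, Tyro3, Pros1, Msr1 and Cd47) were higher in both imiquimod libraries, 4 (Gas6, Mfge8, Cd36 and Sirpa) overlapped and none was lower. On that scale 81.8% of all tested genes were higher without overlap, since the markers themselves were lower. The log2 level of Sirpa less the marker mean was -2.38 and -2.73 after Vaseline and -2.67 and -2.03 after imiquimod.

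Related genes were then read as lists of the same pathways, by counts and medians beside the 10. None of the 87 tested genes in these 6 lists passed the edgeR test. The TAM pathway partners, which include regulators of TAM signalling and enzymes that modify its ligands or shed its receptors, had 10 of 10 negative log2 fold changes and a median of -1.07. Of these 10, 7 were lower without overlap, as were 20.9% of all tested genes, a share that includes genes near background. Above background, 8 of the 9 that entered that fit were negative. Vkorc1, of the vitamin K cycle that serves the ligands Gas6 and protein S, had a log2 fold change of -1.59, Socs1, a brake on cytokine signalling, -1.46, and Adam10, a sheddase, -1.32 (adjusted p = 0.284, 0.319 and 0.360). Above background these values were smaller, at -0.78, -0.66 and -0.58. Socs3 had the highest level of this list, at 247.5 and 359.3 CPM after Vaseline and at 151.9 and 149.5 CPM after imiquimod.

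In the list of SIRP-alpha effectors and other genes of restrained engulfment, 8 of 9 had negative fold changes, with a median of -1.36. Above background 7 of 8 were negative. The list also held Tyrobp, an adaptor of activating receptors, so not all of its genes restrain engulfment. Ptpn6, which encodes the phosphatase SHP-1 that SIRP-alpha recruits, was at 108.8 and 292.5 CPM after Vaseline and at 39.4 and 42.7 CPM after imiquimod, and its log2 fold change stood at -2.29 (adjusted p = 0.205, SE 0.78). Its libraries were ordered in groups as those of Sirpa were. Skap2, an adaptor of SIRP-alpha signalling, had a log2 fold change of -1.88 (adjusted p = 0.278), and Tyrobp, the adaptor DAP12 of activating myeloid receptors, had -2.10 (adjusted p = 0.180). Above background the values were -1.38 for Ptpn6, -1.03 for Skap2 and -1.25 for Tyrobp. B2m had the highest level of this list per exonic kilobase. Siglecg, picked out here after its values were seen, was the 1 gene with a positive value, 1.46 (adjusted p = 0.324), at a mean of 2.42 times background.

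Other receptors and bridging molecules for dying cells were mixed, with 11 negative and 10 positive of 21 and a median of -0.07, and above background 4 of 13 were negative. Havcr2, which encodes the phosphatidylserine receptor TIM-3, was at 299.5 and 711.9 CPM after Vaseline and at 134.7 and 133.4 CPM after imiquimod. Its imiquimod libraries lay below both Vaseline libraries, and the log2 fold change stood at -1.92 (adjusted p = 0.358, SE 0.95) and at -1.03 above background. Cd300lf, a phosphatidylserine-binding receptor of myeloid cells, had 1.92 (adjusted p = 0.168) and was at 4.42 and 3.48 CPM after Vaseline and at 5.11 and 23.8 CPM after imiquimod. That value rested on imiquimod library 2, in which neutrophil markers were also highest, and the part of those cells was not tested. Anxa5, which encodes a phosphatidylserine-binding annexin, had -1.52 (adjusted p = 0.375; -0.76 above background), and Thbs1 (thrombospondin-1, a CD36 ligand) had the highest level, with overlapping groups.

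Other scavenger receptors gave 9 negative and 5 positive of 14 and a median of -0.29, and above background 4 of 8 were negative. Clec7a, which encodes the beta-glucan receptor dectin-1, was at 234.7 and 424.4 CPM after Vaseline and at 58.8 and 66.7 CPM after imiquimod, and its log2 fold change stood at -2.39 (adjusted p = 0.235, SE 0.86) and at -1.52 above background. As for Cd36, both imiquimod libraries were well below both Vaseline libraries. Mrc1, the mannose receptor and also a macrophage marker, had -1.46 (adjusted p = 0.316; -0.51 above background), Scara5, a ferritin receptor, had 1.30 (adjusted p = 0.365) at a mean of 1.56 times background, and Cxcl16, a chemokine that also binds oxidised lipoprotein, had the highest level of this list, with a log2 fold change of -0.38 that turned to 0.39 above background.

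The genes of engulfment and digestion had 20 of 23 negative fold changes and a median of -0.76. For tested genes at 5 times background or more it was -0.68, a set that only 20 of the 23 entered. Of the 23, 13 were lower without overlap, against 20.9% of all tested genes, a share that includes genes near background. Above background 13 of the 20 in that fit were negative. Elmo1 and Dock2, which encode parts of Rac-activating complexes, had log2 fold changes of -1.94 (adjusted p = 0.290) and -2.02 (adjusted p = 0.296), and of -1.08 and -1.09 above background. Rxra, a nuclear receptor that pairs with the lipid sensors of phagocytes, had -1.50 (adjusted p = 0.355; -0.87 above background), and Rab7, of late phagosomes, had the highest level. Genes of phosphatidylserine exposure and find-me signals had 6 of 10 negative and a median of -0.56, and 5 of 6 negative above background. In that list Cx3cl1, a find-me chemokine, had -1.34 (adjusted p = 0.335; -0.56 above background), Tmem30a, a flippase subunit, had -1.26 (adjusted p = 0.387; -0.46 above background), and Ano6, a scramblase, had the highest level.

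**Figure D5:**
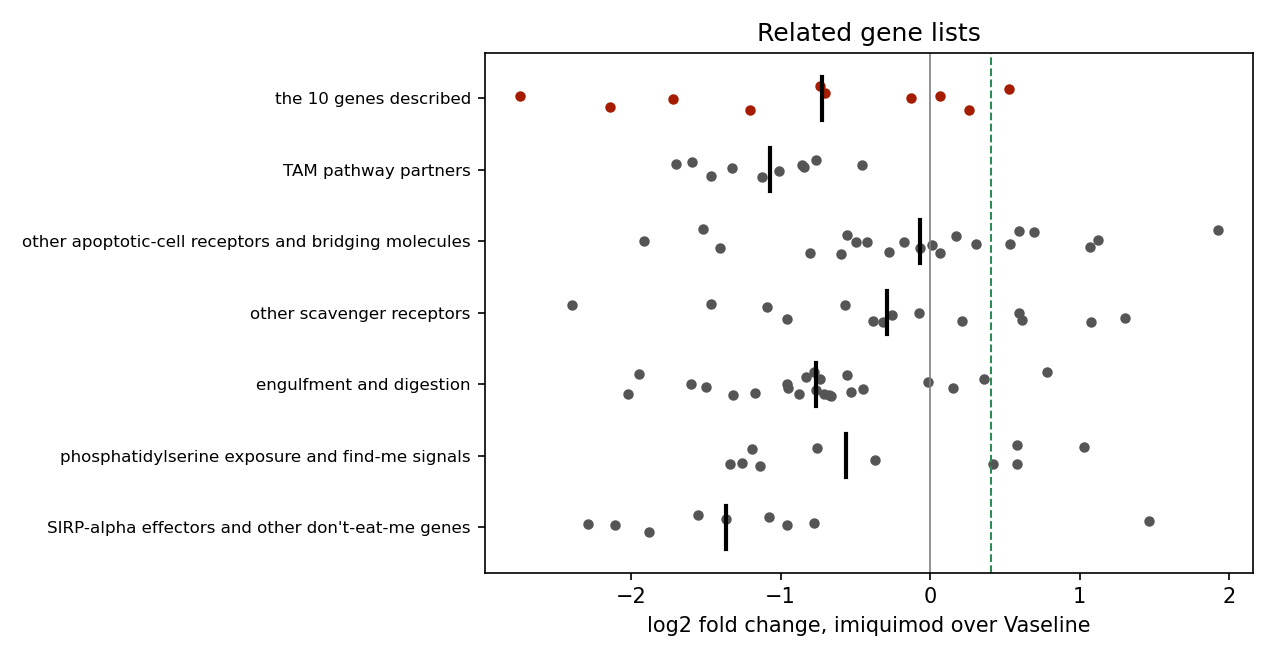
Log2 fold change of imiquimod over Vaseline for each gene of the 10 (red) and of 6 related lists (grey), with the median of each as a black bar, 0 as a solid line and the median of all tested genes as a dashed line. The medians run from -1.36 to -0.07 and all lie left of the dashed line at 0.41.

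The medians of all 6 lists lay below that of all tested genes, and those of 3 lay below the -0.68 of tested genes at 5 times background or more. The list medians include genes near background, which the -0.68 leaves out. The count of 3 therefore depends in part on how many such genes each list holds. Langerhans cell markers had a lower median, -2.08, and mitochondrially encoded transcripts, which were 13 of 13 negative, had -1.28. How far the share of Langerhans cells or RNA quality moved the efferocytosis genes was not tested.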

How the data were processed

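Per the labels' protocols, each library was made from 10 to 70 ng of total RNA with a SMARTer Stranded Pico Input kit. The authors deposited whole-number counts per gene, and the submitters' processing notes name build GRCm38, Trimmomatic, HISAT2, SAMtools and StringTie without versions. The annotation and strand setting are not given in the sources used here, so reads of overlapping antisense genes may not be told apart.

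The counts were fitted with edgeR 4.0.16 (R 4.3.3; quasi-likelihood test with bias-adjusted deviances, TMM, treatment only, two-sided, all 4 libraries). The edgeR filter with a minimum count of 10 and a minimum total of 15 left 39439 of 55487 genes, 10 of 10 members among them, and p-values were adjusted over all of these by the Benjamini-Hochberg method. Each standard error is the log2 fold change divided by the root of F. The common dispersion was 0.369. This form of the quasi-likelihood test was chosen after its calls and those of the older form had been seen, to keep the processing used earlier on these data. Exonic lengths and coordinates are from GENCODE vM21 (GRCm38), which matched 55227 genes.

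The members and lists were chosen with earlier results of these data known. All 10 members are named. Of each other list, the 3 genes of smallest p and the gene of highest level per exonic kilobase were eligible, and those of marker lists are given as sums. A gene that met this rule is not reported here. Genes like Mfge8 are the 3 protein-coding genes at 5 times background or more with the smallest root-mean-square difference. Ratios other than the Axl share were added after values were seen. DESeq2 1.42.0, limma-voom 3.58.1, other scalings and filters, a replicate block and leaving out each library were the alternatives. The edgeR fit, without its gene filter, was run on simulated counts as a check of the code.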

Additional observations from a re-analysis of the deposited data

How the results depend on the processing

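No member was called higher in any alternative, and members were called lower only with DESeq2: 3 of 10 on all genes and 1 of 8 above background, the latter an alternative chosen after seeing the data. The median of the members, -0.72, was 0.073 on library totals and ran from -1.18 to -0.53 with each library left out. Scaling moved the median of all genes from 0.41 to 0.16 (RLE), 0.76 (upper quartile), 1.30 (library totals) or 0.08 (genes above background). Cd36, Mfge8, Sirpa and Gas6 kept a negative sign in all 16 alternatives, with ranges over left-out libraries of -2.36 to -2.07, -3.49 to -1.65, -2.20 to -1.27 and -2.56 to -0.50. The sign of Axl turned on library totals (0.54), above background (0.52, with DESeq2 0.48), with upper-quartile factors (0.19), with the stricter filter of 10 counts in each library and 50 in total (0.016) and without imiquimod library 2 (range over left-out libraries -1.11 to 0.44). Cd47 turned on library totals (0.12) and above background (0.072, with DESeq2 0.038), and Pros1 on library totals (0.022). Mertk turned without Vaseline library 2 (range -0.33 to 1.04) and Tyro3 without imiquimod library 1 (range -0.057 to 0.93). Msr1 turned with DESeq2 (-0.30), RLE (-0.22), voom (-0.039), no filter (-0.029), the replicate block (-0.015), the crossed block (-0.089) and without Vaseline library 1 or imiquimod library 2 (range -0.81 to 0.44). The cause of these turns was not tested. The difference in the Axl share was -7.79 points with the background subtracted and -16.93 to -5.05 with 1 library left out. Genes called, higher and lower, were 25 and 54, against 3 and 5 (older edgeR form, added after seeing the data, in which the adjusted p of Cd36 was 0.533 instead of 0.121), 17 and 14 (RLE), 41 and 56 (upper quartile), 8 and 5 (library totals), 41 and 136 (voom), 6 and 669 (DESeq2), 27 and 124 (stricter filter), 0 and 0 (no filter, or edgeR above background) and 97 and 156 (DESeq2 above background). They were 2959 and 317 without Vaseline library 1, 28 and 17 without Vaseline library 2, 15 and 6 without imiquimod library 1 and 8 and 0 without imiquimod library 2; the arm with a lone library is assumed to vary like the other. Same-numbered libraries did not deviate together (correlation -0.43). With 2 libraries per group this is a single value, so it cannot settle whether the numbers pair the libraries. With the replicate block 1 gene was called higher and 0 lower, and 0 were members. With the crossed block, added after seeing the data, no gene was called. Imiquimod libraries had fewer counts and more background, which limits Mertk, Msr1 and, after imiquimod, Cd36. In imiquimod library 2, Tyro3 and Pros1 were also under 5 times background, at 3.53 and 4.55 times.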
